A study of Rattus norvegicus with 6 samples.

Results

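The 10 genes examined here serve in the rat liver as markers of fetal, progenitor and preneoplastic cells: Afp, Gpc3, Anxa2, Cd44, Prom1, Epcam, Krt7, Krt19, Sox9 and Cftr. Members were found as all probes, other than controls, whose RefSeq accession belongs to one of these genes. That gave 22 probes for 9 of the 10 genes, out of 61657 probes and 15284 named genes on the array. No probe carried a RefSeq accession of Sox9, which is not analysed here. Liver RNA came from 6 male Sprague-Dawley (Crl:CD(SD)) rats bought at 5 weeks of age and kept on a basal diet, with 1 array of 1 colour per rat. In the ADBAQ group 3 rats received 1-amino-2,4-dibromoanthraquinone, an anthraquinone dye intermediate known to cause liver tumours in long-term rodent studies, at 1000 mg/kg/day. In the vehicle group 3 rats received no ADBAQ. The labels name this vehicle as purified water in one place and as corn oil in another, and give the treatment as 28 days in one place and 9 weeks in another.

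Alpha-fetoprotein and glypican-3 are made abundantly by the fetal liver and again by many liver tumours. Bile duct cells, and the small duct-like progenitor cells (oval cells) that multiply in the injured rat liver, carry the keratins 7 and 19, the adhesion protein EpCAM, the membrane protein prominin-1 (CD133), the transcription factor SOX9 and the chloride channel CFTR. Annexin A2 and the hyaluronan receptor CD44 are low in resting hepatocytes and higher in duct cells, leukocytes, and preneoplastic or tumour cells of the liver.

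Values are log2 of the processed signal relative to the array's 75th percentile, so 0 is a signal equal to that percentile. Between 62.1% and 65.3% of probes per array were well above background, none of the 61657 was saturated, and the ADBAQ arrays were brighter, with 75th percentiles of 643, 570 and 596 against 455, 461 and 433 signal units on the vehicle arrays. A gene was called when its brightest tested probe had an adjusted p under 0.05 in limma. All hepatocyte markers tested (10 of 10, among them Alb and Ttr) were well above background on every array, as the tissue label requires. Each group was on its own slide, read in its own scan, so for every difference given, slide, scan and treatment cannot be told apart. Scaling to the spike-in controls in place of the 75th percentile moved the median log2 fold change of all genes to 0.72, from -0.04 as reported here, and the split of called genes to 8942 higher and 188 lower, against 1027 higher and 1281 lower. Each fold change is therefore a change relative to most other genes of the same array.

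Of the 9 genes, 5 rose in ADBAQ livers (Anxa2, Cd44, Prom1, Epcam and Cftr), 1 fell (Krt7), and 3 did not pass the test (Afp, Gpc3 and Krt19). Among all 11344 genes tested, 20.3% were called, 9.05% higher and 11.3% lower. The increases lay between 1.77-fold and 3.32-fold, and the decrease of Krt7 was 1.53-fold. Of the 22 probes, 16 passed the filter on dim signals and 9 of these were called, against 18.4% of all 38695 probes tested. The groups did not overlap in 7 of the 9 genes, against 46.3% of all genes tested, and on 10 of the 16 probes, against 43.0% of all probes tested. A probe could pass the filter through its brighter group alone. These arrays measured whole liver, where more cells of a type and more RNA per cell cannot be told apart.

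**Figure D1:**
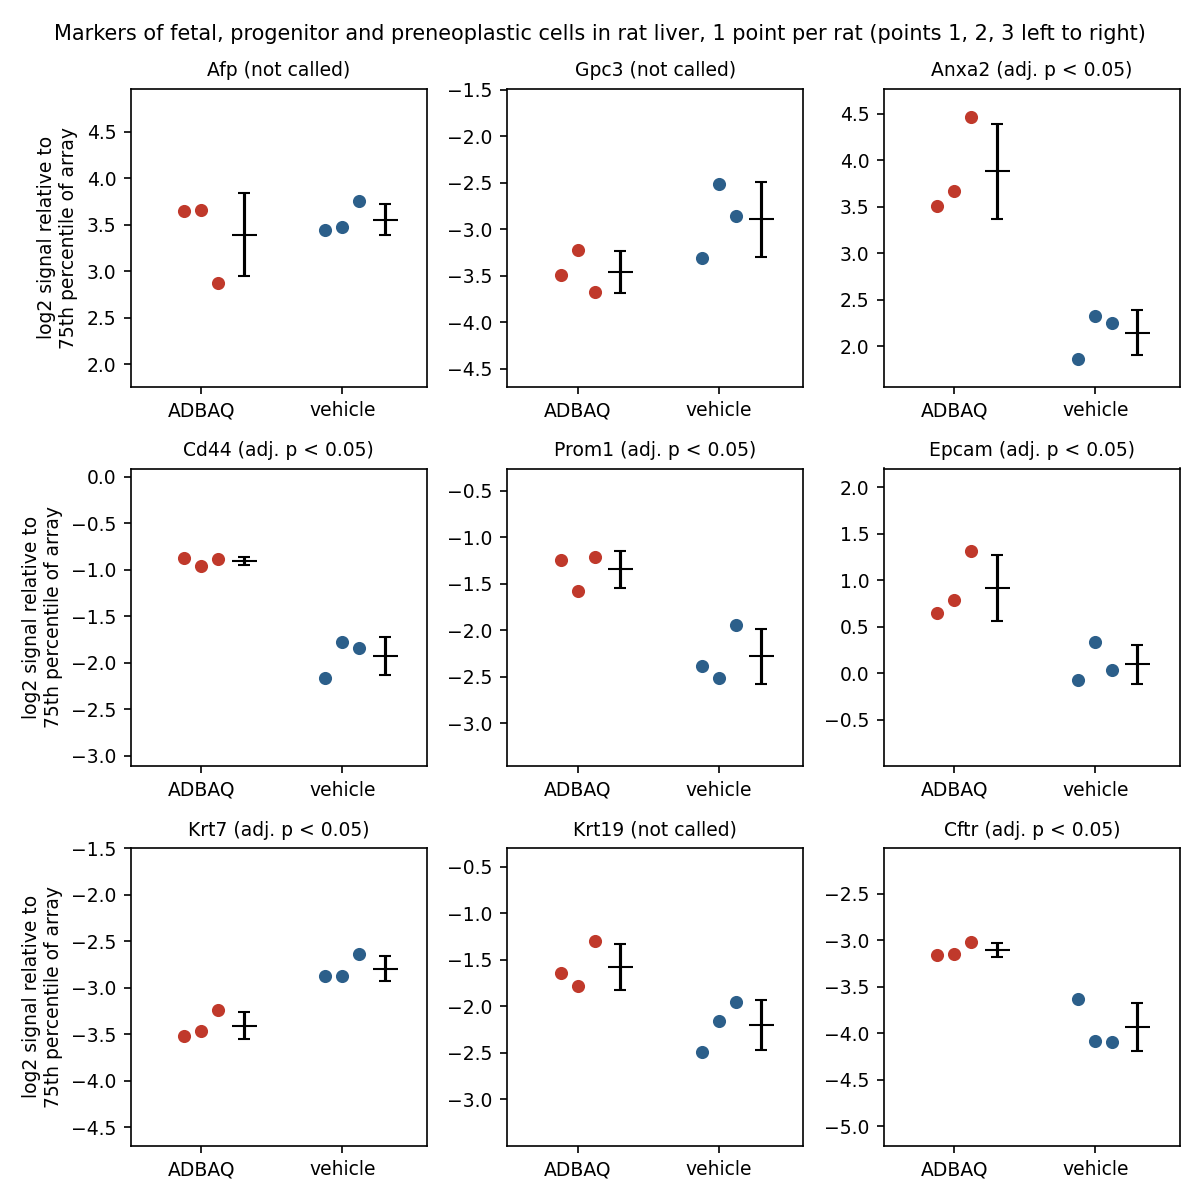
Log2 signal of the brightest tested probe of each of the 9 genes (vertical axis, relative to the 75th percentile of the array; each panel spans the same range), 1 point per rat, ADBAQ in red on the left and vehicle in blue on the right, with the mean and SD as a black bar (n = 3 per group). Anxa2 has the widest gap between groups, 1.18 on the log2 scale, Krt7 is the gene whose ADBAQ points lie below all vehicle points, and the points of Afp and Gpc3 overlap.

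Anxa2 encodes annexin A2, a calcium-dependent protein that binds membrane phospholipids and, with S100A10, plasminogen and its activator at the cell surface. Its brightest probe gave 3.51, 3.67 and 4.47 in ADBAQ livers, against 1.87, 2.33 and 2.25 in vehicle livers. The groups did not overlap, and ADBAQ rat 3 was the highest. The log2 fold change was 1.73 ± 0.27 (SE, n = 3 rats per group; adjusted p = 0.012), which is 3.32-fold. The second probe gave 1.47, 1.51 and 2.27 in ADBAQ livers, against -0.37, 0.10 and 0.18 in vehicle livers, and its fold change was 1.78 ± 0.26 (adjusted p = 0.0102). Both probes thus gave nearly the same fold change, and each set of ADBAQ values lay above every vehicle value of that probe. The size of the change of Anxa2 exceeded that of 98.0% of all genes tested.

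Cd44 encodes the main cell surface receptor for hyaluronan, also a receptor for osteopontin, and is expressed as many splice forms. Its brightest probe gave -0.87, -0.96 and -0.89 in ADBAQ livers, against -2.16, -1.78 and -1.85 in vehicle livers. The ADBAQ values lay close together (SD 0.05), and all lay above the vehicle values. The log2 fold change was 1.02 ± 0.12 (adjusted p = 0.00683), or 2.03-fold. A second probe, at -1.40, -1.25 and -1.18 in ADBAQ livers against -2.36, -1.94 and -2.06 in vehicle livers, rose by 0.84 ± 0.14 (adjusted p = 0.0128). Another tested probe, A_64_P130995, did not share this pattern, at -4.43, -3.85 and -4.17 in ADBAQ livers against -4.19, -3.89 and -3.81 in vehicle livers (-0.18 ± 0.18, adjusted p = 0.496). This probe was dim, with signals of 29.8 to 39.5 in ADBAQ and 24.9 to 31.2 in vehicle livers, where the lowest signals called well above background were 11.9 to 13.8. The other 3 of the 6 Cd44 probes were not well above background on any array.

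The files do not say which part of the Cd44 transcript each probe covers. Within each array, the brightest Cd44 probe minus A_64_P130995 gave 3.56, 2.89 and 3.28 in ADBAQ livers, against 2.03, 2.11 and 1.97 in vehicle livers. The 2 probes thus changed unequally in every ADBAQ liver relative to every vehicle liver, by 1.21 ± 0.20 on the log2 scale (SE, n = 3 per group). This value is a description with no test, since the pair was chosen after 1 probe had been called and the other had not. The mean of the 3 tested Cd44 probes rose by 0.56, a smaller change than that of the brightest probe, and was still called (adjusted p = 0.0350).

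**Figure D2:**
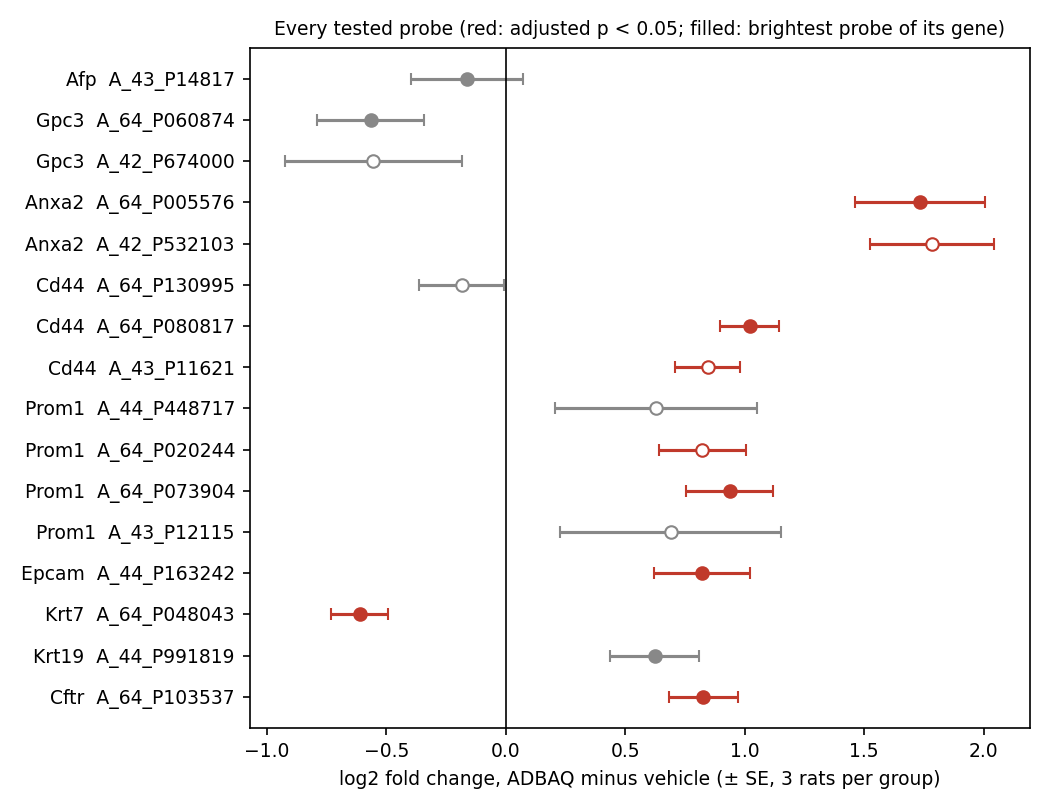
Log2 fold change of ADBAQ minus vehicle with its SE (horizontal axis) for each of the 16 tested probes, by gene and probe name (vertical axis), in red where the adjusted p is under 0.05 and filled for the brightest probe of a gene. The 2 Anxa2 probes lie together at the right, the 2 Prom1 probes that were not called have the widest errors, and 1 of the 3 Cd44 probes lies apart from the other 2.

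The stretch of 250 bases before the transcription start is shown for Anxa2, Cd44 and Epcam, 3 of the genes that rose, so that motifs of factors known to respond to chemical stress can be seen in place. The sequences are RefSeq's, from build GRCr8, 5′ to 3′ on the strand of the gene, and the array itself was designed on rn4. Capitals mark matches to TGANTCA (AP-1), GCGTG (the core of the AhR site) and TGACNNNGC (the core of the antioxidant response element), each searched on both strands. The letters of AP-1 and of the antioxidant response element core can overlap.
Anxa2, chr8:78986002-78986251, + strand: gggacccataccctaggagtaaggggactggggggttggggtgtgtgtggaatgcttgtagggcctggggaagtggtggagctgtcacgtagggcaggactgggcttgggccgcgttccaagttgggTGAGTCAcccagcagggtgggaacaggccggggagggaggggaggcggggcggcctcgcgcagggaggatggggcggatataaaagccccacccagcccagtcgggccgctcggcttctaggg
Cd44, chr3:109699425-109699674, - strand: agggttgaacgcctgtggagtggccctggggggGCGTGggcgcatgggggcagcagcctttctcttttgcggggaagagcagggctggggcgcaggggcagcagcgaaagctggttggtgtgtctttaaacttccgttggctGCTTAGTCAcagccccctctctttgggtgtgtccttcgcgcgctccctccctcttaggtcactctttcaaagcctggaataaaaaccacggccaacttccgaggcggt
Epcam, chr6:12649679-12649928, - strand: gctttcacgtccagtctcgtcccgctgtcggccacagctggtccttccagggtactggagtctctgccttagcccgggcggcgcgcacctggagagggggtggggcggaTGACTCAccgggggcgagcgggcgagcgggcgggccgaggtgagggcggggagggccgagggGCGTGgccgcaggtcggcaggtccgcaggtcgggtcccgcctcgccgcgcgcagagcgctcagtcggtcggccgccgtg
The Anxa2 window held an AP-1 motif whose first base lies 123 bases before the start, and the Epcam window one at 141 bases. The AP-1 letters were found in 6.34% of 33469 rat windows of this length, the AhR core in 25.9% and the antioxidant response element core in 10.1%. The capitals in Cd44 are an AhR core at 217 bases and an antioxidant response element core, read on the opposite strand, at 108 bases, and those in Epcam include an AhR core at 79 bases. The 3 motifs share no bases with each other in these windows. Of the other members, Cftr held 1 AhR core and Gpc3, which did not pass the test, held 3, while Prom1, with 2 listed starts, held 1 AP-1 motif before one of them and Afp held none of the 3. A match of letters describes the window only. Windows were at hand for 7 of the 10 genes, and not for Krt7, Krt19 and Sox9.

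Prom1 encodes prominin-1, a membrane glycoprotein of cell protrusions and a marker of progenitor cells and bile ducts. Its brightest probe gave -1.25, -1.58 and -1.21 in ADBAQ livers, against -2.39, -2.51 and -1.95 in vehicle livers. All ADBAQ values lay above all vehicle values, and vehicle rat 3 came nearest to them. The log2 fold change was 0.94 ± 0.18 (adjusted p = 0.0207), or 1.91-fold. Of its 4 tested probes 2 were called, the second at 0.82 ± 0.18 (adjusted p = 0.0294), and the 2 dimmest did not pass (0.63 ± 0.42 and 0.69 ± 0.46). These 2 were well above background on 2 and 1 of the 3 vehicle arrays and entered the test through the ADBAQ group alone, which favours a positive value. On those 2 the groups overlapped through vehicle rat 3, which lay above all ADBAQ rats on one and between ADBAQ rats on the other. Prom1 no longer passed when vehicle replicate 1 or 2, or ADBAQ replicate 1 or 3, was left out (adjusted p from 0.0553 to 0.0723), and when the probes were averaged (0.77, adjusted p = 0.113).

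Epcam encodes the epithelial cell adhesion molecule, found on duct cells and progenitors and scarcely on mature hepatocytes. Its single probe gave 0.65, 0.79 and 1.32 in ADBAQ livers, against -0.07, 0.33 and 0.04 in vehicle livers. The groups did not overlap, and ADBAQ rat 3 stood highest, as it did for Anxa2. Epcam rose by 0.82 ± 0.20 on the log2 scale (adjusted p = 0.0398), or 1.77-fold. This call rested on all 6 arrays: leaving out any 1 of them gave log2 fold changes of 0.62 to 0.96 with adjusted p between 0.0558 and 0.102.

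Cftr encodes the chloride channel through which cholangiocytes secrete into bile. Its tested probe gave -3.16, -3.15 and -3.02 in ADBAQ livers, against -3.64, -4.08 and -4.09 in vehicle livers. The ADBAQ values lay close together and above the vehicle values. The log2 fold change was 0.83 ± 0.15 (adjusted p = 0.0163), or 1.77-fold. The probe was dim, with signals of 64.4 to 73.3 in ADBAQ and 25.4 to 36.5 in vehicle livers, and with normexp background correction the fold change was 0.14 (adjusted p = 0.244). Leaving out any 1 of the 3 ADBAQ arrays also ended the call (highest adjusted p = 0.0569). The other 2 Cftr probes did not pass the filter on dim signals.

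Krt7 and Krt19 encode keratins of simple epithelia that mark bile duct cells in the adult liver, and the 2 differed in sign. The Krt7 probe gave -3.52, -3.47 and -3.24 in ADBAQ livers, against -2.87, -2.87 and -2.64 in vehicle livers. Every ADBAQ value lay below every vehicle value. Krt7 fell by 0.61 on the log2 scale (-0.61 ± 0.12, adjusted p = 0.0213) relative to the 75th percentile, and the sign turned with scaling to the spike-in controls (0.14, adjusted p = 0.292). Before scaling, its signals were 56.2, 51.5 and 63.2 in ADBAQ livers and 62.0, 63.1 and 69.4 in vehicle livers and the groups overlapped. Krt7 no longer passed when vehicle replicate 3, or ADBAQ replicate 1 or 2, was left out (adjusted p from 0.0542 to 0.0734).

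The Krt19 probe gave -1.65, -1.79 and -1.30 in ADBAQ livers, against -2.50, -2.15 and -1.95 in vehicle livers. The groups did not overlap, with a gap of 0.17 between the lowest ADBAQ and the highest vehicle value. The difference of 0.62 ± 0.19 did not pass the threshold (adjusted p = 0.0644). It passed with trend and robust variance estimates (adjusted p = 0.0488) and with scaling to the spike-in controls (1.38, adjusted p = 0.000716).

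A difference between 2 probes on the same array does not depend on how the array is scaled. Krt19 minus Krt7 was 1.87, 1.68 and 1.93 in ADBAQ livers, against 0.38, 0.72 and 0.69 in vehicle livers. The difference between the groups was 1.24 ± 0.13 on the log2 scale (SE, n = 3 per group). It was 1.43 ± 0.20 for Epcam minus Krt7, 1.55 ± 0.15 for Prom1 minus Krt7 and 1.44 ± 0.21 for Cftr minus Krt7. These 4 values are a description with no test: the pairs were chosen after the values were seen, all 4 share the dim Krt7 probe, and the groups were already apart in opposite directions on both probes of each pair, so that their difference had to separate the groups. With normexp background correction the 4 differences kept their sign, at 0.78 for Krt19, 1.15 for Epcam, 1.03 for Prom1 and 0.55 for Cftr.

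**Figure D3:**
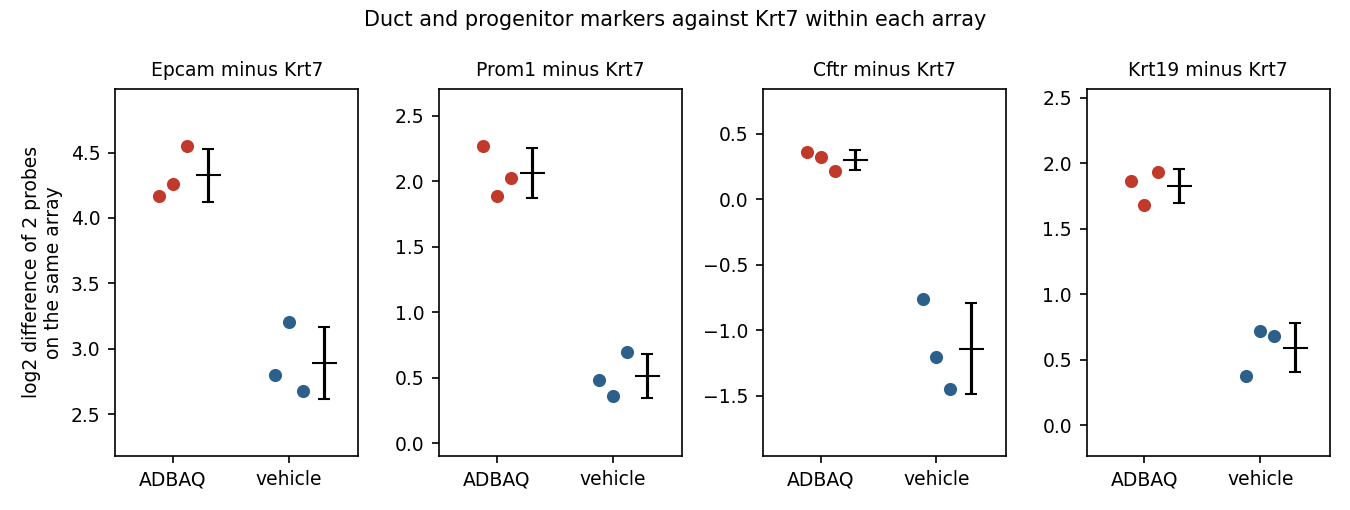
Log2 difference between the probe of a duct or progenitor marker and the Krt7 probe on the same array (vertical axis; each panel spans the same range), 1 point per rat, ADBAQ in red on the left and vehicle in blue on the right, with the mean and SD as a black bar (n = 3 per group). For Krt19 the ADBAQ points lie at 1.68 to 1.93 and the vehicle points at 0.38 to 0.72; the separation in each panel follows from the values of the 2 probes, and Krt7 is shared by all 4 panels.

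The fetal liver genes did not follow the genes that rose. Afp, which encodes alpha-fetoprotein, gave 3.65, 3.66 and 2.87 in ADBAQ livers, against 3.45, 3.47 and 3.75 in vehicle livers. The groups overlapped, with ADBAQ rats 1 and 2 inside the vehicle range and ADBAQ rat 3 below it. The difference was -0.16 ± 0.23 (adjusted p = 0.655), 0.10 without ADBAQ replicate 3, and 0.59 with scaling to the spike-in controls (adjusted p = 0.0444), which is less than the shift of the median gene under that scaling.

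Gpc3 encodes glypican-3, a heparan sulfate proteoglycan of the cell surface that binds growth factors. Its brightest probe gave -3.49, -3.22 and -3.68 in ADBAQ livers, against -3.31, -2.52 and -2.85 in vehicle livers. The groups overlapped at vehicle rat 1, and the difference was -0.57 ± 0.22 (adjusted p = 0.127). The second tested probe gave -0.55 ± 0.37 (adjusted p = 0.326). A probe that was well above background on 1 ADBAQ and 1 vehicle array was not tested. With normexp background correction Gpc3 was called lower (-0.44, adjusted p = 0.0268), and with scaling to the spike-in controls the value was 0.19 (adjusted p = 0.410).

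**Figure D4:**
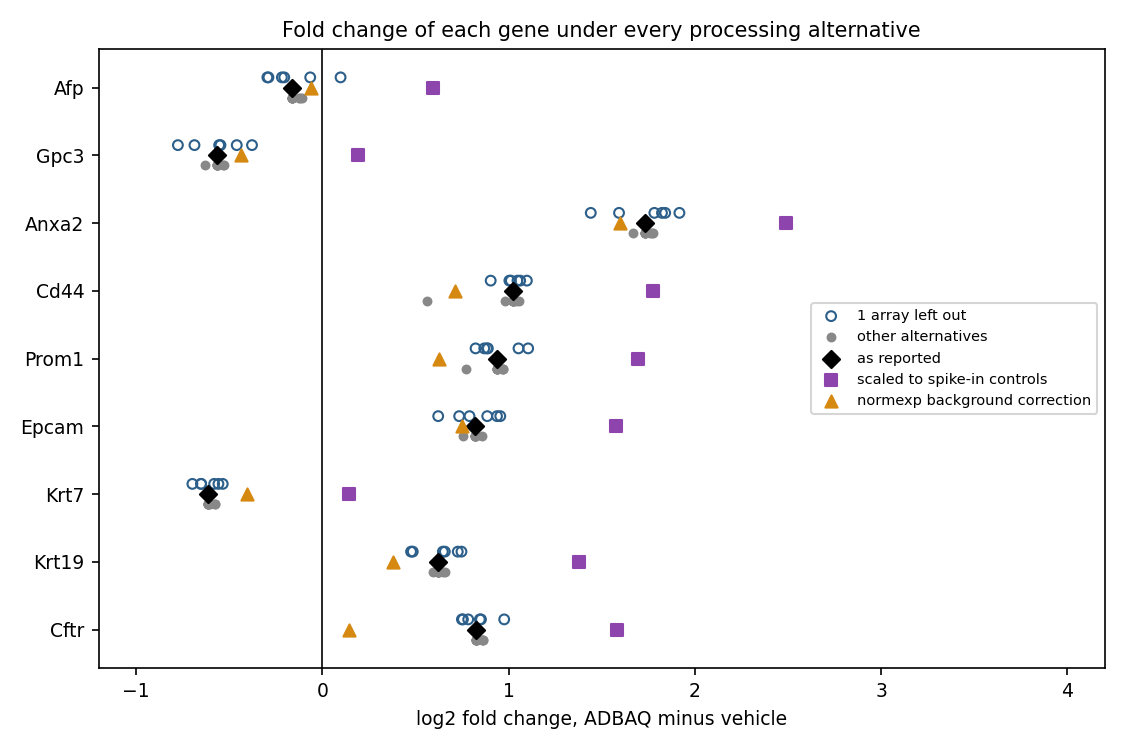
Log2 fold change of ADBAQ minus vehicle (horizontal axis) of each of the 9 genes (vertical axis) as reported (black diamond), with scaling to the spike-in controls (purple square), with normexp background correction (orange triangle), with 1 array left out (blue circles) and under the other alternatives (grey points). All points of Anxa2 (1.44 to 2.49) and Cd44 (0.56 to 1.78) lie right of 0, while those of Afp, Gpc3 and Krt7 lie on both sides.

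The rats did not keep the same order over all genes. ADBAQ rat 3 had the highest ADBAQ value in 6 of the 9 genes (Anxa2, Prom1, Epcam, Krt7, Krt19 and Cftr) and the lowest for Afp and Gpc3. Vehicle rat 1 had the lowest vehicle value in 7 of the 9 genes, Prom1 and Cftr being the others, and the highest for Cftr.

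Among 10769 genes well above background on all 6 arrays, the 3 whose profiles over the 6 arrays lay nearest to each called gene were found by Euclidean distance after centring each gene on its mean. For Anxa2 they were Synj2 (distance 0.326), Gstm3 (0.382) and Ydjc (0.477). For Cd44 they were Arpp19 (0.175), Nipa1 (0.202) and Gar1 (0.202), and for Prom1 Spef1 (0.258), Mafk (0.285) and Eif2b3 (0.291). Epcam was nearest to Cdyl2 (0.243), Plscr1 (0.250) and Ptgr1 (0.273), and Cftr to Ugcg (0.182), Zwint (0.190) and Cfap210 (0.227). Krt7 was nearest to Cers1 (0.0944), Slc16a4 (0.110) and Cbs (0.132). No member was among the 3 nearest genes of another.

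Further genes of the same biology were read from the same fit. Among 14 annexins and their S100 or plasmin partners, 4 rose and 1 fell, or 35.7% called against 20.3% of all genes tested. Their median was 0.40, against -0.04 for all genes tested. Anxa13, an annexin of gut and duct epithelia, rose by 2.06 ± 0.39 (adjusted p = 0.0193), Anxa7 by 1.58 ± 0.18 (adjusted p = 0.00596), S100a10, the direct partner of annexin A2, by 1.01 ± 0.23 (adjusted p = 0.0315) and S100a4 by 0.93 ± 0.17 (adjusted p = 0.0176). Plg, plasminogen, changed by -0.59 ± 0.09, and by 0.17 with scaling to the spike-in controls. Anxa5 (0.63 ± 0.26, adjusted p = 0.135) did not pass. The call of Anxa7 held without any 1 of the 6 arrays, whereas those of Anxa13 (highest adjusted p = 0.0567), S100a10 (0.0822) and S100a4 (0.0608) did not. With normexp background correction Anxa13, a dim probe in vehicle livers, was at 0.81 (adjusted p = 0.0458).

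Of 24 tested cholangiocyte and duct progenitor markers that are no members, 3 rose and none fell, or 12.5% against 20.3% of all genes. Their median was 0.08. Those 3 were Anxa13, Ehf, an epithelial ETS factor (0.75 ± 0.15, adjusted p = 0.0241), and Tspan8, a tetraspanin (0.71 ± 0.19, adjusted p = 0.0476). With normexp background correction Ehf (-0.08) and Tspan8 (0.25) were not called, and each was lost with single arrays left out, Ehf at adjusted p up to 0.0796 and Tspan8 at up to 0.118. Krt8 and Krt18, the keratins of hepatocytes and duct cells alike, were at 0.54 ± 0.18 (adjusted p = 0.0841) and 0.38 ± 0.15 (adjusted p = 0.123), and Spp1, osteopontin, at 1.03 ± 0.40 (adjusted p = 0.123). The summed signal of the 24 markers, relative to the 75th percentile, was 365 to 443 in ADBAQ and 310 to 386 in vehicle livers, most of it from Krt18. Without Krt18 the sum over the other 23 was 95.5 to 108 in ADBAQ and 106 to 148 in vehicle livers, and the groups overlapped in both sums. A large part of the second sum came from Cldn3 and Onecut1, neither of them called (adjusted p = 0.458 and 0.810). Onecut1 varied widely between rats, at 4.94, 4.63 and 2.51 in ADBAQ livers and 1.68, 5.87 and 6.03 in vehicle livers. Both sums thus follow a few bright genes and are no measure of the duct markers as a set.

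Among 15 Notch and Hippo/YAP pathway genes, which act upstream of Sox9 or beside it in duct formation, 4 fell and 1 rose (median -0.13). This is 33.3% called, against 20.3% of all genes tested. Notch1, a Notch receptor, changed by -2.01 ± 0.36 (adjusted p = 0.0169), Ccn2, a YAP target, by -0.89 ± 0.09 (adjusted p = 0.00399), Jag1, a Notch ligand, by -0.88 ± 0.21 (adjusted p = 0.0383) and Tead1, the DNA-binding partner of YAP, by -0.69 ± 0.17 (adjusted p = 0.041). Notch3, the exception, rose by 0.50 ± 0.11 (adjusted p = 0.0313). Ccn1 (0.35 ± 0.30, adjusted p = 0.442), Amotl2 (0.55 ± 0.48, adjusted p = 0.451) and Axl (-0.34 ± 0.12, adjusted p = 0.0998), also in this list, did not pass. With scaling to the spike-in controls Notch1 stayed called lower (-1.25, adjusted p = 0.0126) and Notch3 higher (1.26, adjusted p = 0.000503). Under that scaling Ccn2 (-0.13, adjusted p = 0.253), Jag1 (-0.13, adjusted p = 0.563) and Tead1 (0.07, adjusted p = 0.676) did not pass. The call of Ccn2 held without any 1 array, and those of Notch1, Jag1, Tead1 and Notch3 did not (highest adjusted p = 0.0582, 0.106, 0.122 and 0.0995). Tead1 had 3 tested probes, of which 2 were lower and 1 was called. For Notch1 and Notch3, 1 of 2 tested probes was called, and both probes had the same sign. When the probes of each gene were averaged, 3 genes of this list were called, all lower.

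Among 12 CD44 ligands and ezrin-family partners 2 fell and none rose, or 16.7% called against 20.3% of all genes tested. The 2 were Fn1, fibronectin (-1.23 ± 0.09, adjusted p = 0.00206), and Mmp14, a membrane metalloproteinase (-0.43 ± 0.10, adjusted p = 0.0379). With scaling to the spike-in controls Mmp14 was called higher (0.32, adjusted p = 0.0465). Fn1 stayed called whichever array was left out, and Mmp14 in none of these 6 fits (highest adjusted p = 0.108). Ezr, ezrin, which ties CD44 to actin, was at 0.74 ± 0.22 (adjusted p = 0.0601). Other fetal liver and oncofetal genes had none of 8 higher and 2 lower, or 25% called against 20.3% of all genes tested. These were Igf2, a fetal growth factor (-0.62 ± 0.15, adjusted p = 0.0404), and Ahsg, fetuin-A (-0.42 ± 0.10, adjusted p = 0.0342). With scaling to the spike-in controls Igf2 was at 0.13 (adjusted p = 0.446), and Ahsg was called higher (0.33, adjusted p = 0.0241). Ahsg was called in none of the 6 fits with an array left out (adjusted p up to 0.101) and was at -0.06 with quantile normalization (adjusted p = 0.741), and Igf2 was called in 1 of those 6 fits (adjusted p up to 0.111). H19, an imprinted fetal RNA, was at -1.45 ± 0.78 (adjusted p = 0.231). Of 9 factors known to control Afp or hepatocyte identity, 1 was called, or 11.1% against 20.3% of all genes tested. It was Cebpa (-0.93 ± 0.13, adjusted p = 0.00899, and -0.18 with scaling to the spike-in controls, adjusted p = 0.210). Zbtb20, a repressor of Afp, was at -0.20 ± 0.08 (adjusted p = 0.127).

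The classical enzyme markers of preneoplastic foci rose in 11 of 17 cases with none lower, or 64.7% called against 20.3% of all genes tested. Their median was 1.61, against 0.82 for the 9 members. Akr1b8, an aldo-keto reductase, rose by 4.68 ± 0.56 (adjusted p = 0.00653), Abcc3, an efflux pump, by 3.95 ± 0.34 (adjusted p = 0.003) and Aldh3a1, an aldehyde dehydrogenase, by 3.71 ± 0.57 (adjusted p = 0.0116). Akr1b10 was well above background on no vehicle array (0 of 3) and was at least 2.03-fold higher, a bound that was not itself tested. The adjusted p of 0.00976 belongs to its measured log2 fold change of 3.32, which rests on those dim vehicle signals. Akr1b10 entered the test through the ADBAQ group alone, and 10 genes of this list were called when probes had to be well above background on all 6 arrays. With normexp background correction Akr1b10 did not pass (0.37, adjusted p = 0.137).

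Markers of other cells of the liver were read beside these values. Hepatocyte markers had 8 of 10 lower and none higher, or 80% called against 20.3% of all genes tested. Their median was -0.58, and their summed signal was 5047 to 5435 in ADBAQ and 7100 to 7601 in vehicle livers. Cps1 changed by -1.21 ± 0.14 and Apoc3 by -1.17 ± 0.11. With quantile normalization 4 of the 10 were called lower, and with scaling to the spike-in controls 2 were lower and 3 higher. Leukocyte and macrophage markers, some of which share Cd44 and Anxa2 expression, had 1 of 13 higher, Lyz2, lysozyme (0.88 ± 0.14, adjusted p = 0.0122), and 1 lower, Cd8a (-0.85 ± 0.22, adjusted p = 0.0451). This is 15.4% called, against 20.3% of all genes tested. Their summed signal was 107.1 to 125 in ADBAQ and 87.8 to 103 in vehicle livers. Most of it came from Lyz2 and from Clec4f, which did not change (0.04 ± 0.15, adjusted p = 0.856). The separation of the groups in this sum rested on Lyz2. Cd8a was called in 1 of the 6 fits with an array left out (adjusted p up to 0.130) and was at -0.10 with scaling to the spike-in controls (adjusted p = 0.664). Stellate cell and fibroblast markers had none of 10 called, with a summed signal of 32.5 to 35.3 in ADBAQ and 33.5 to 44.6 in vehicle livers. Endothelial and mesothelial markers had 1 of 6 lower, Clec14a (-0.44 ± 0.11, adjusted p = 0.0383), and none higher, or 16.7% called against 20.3% of all genes tested. Their summed signals were 31.0 to 34.1 in ADBAQ and 39.1 to 41.8 in vehicle livers. Most of each sum came from Kdr, which was not called (-0.28 ± 0.09, adjusted p = 0.0842). With scaling to the spike-in controls Clec14a was called higher (0.32, adjusted p = 0.0358). Leaving out any 1 array ended the call of Clec14a (highest adjusted p = 0.112). The part of these cells in the changes of the members was not tested.

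**Figure D5:**
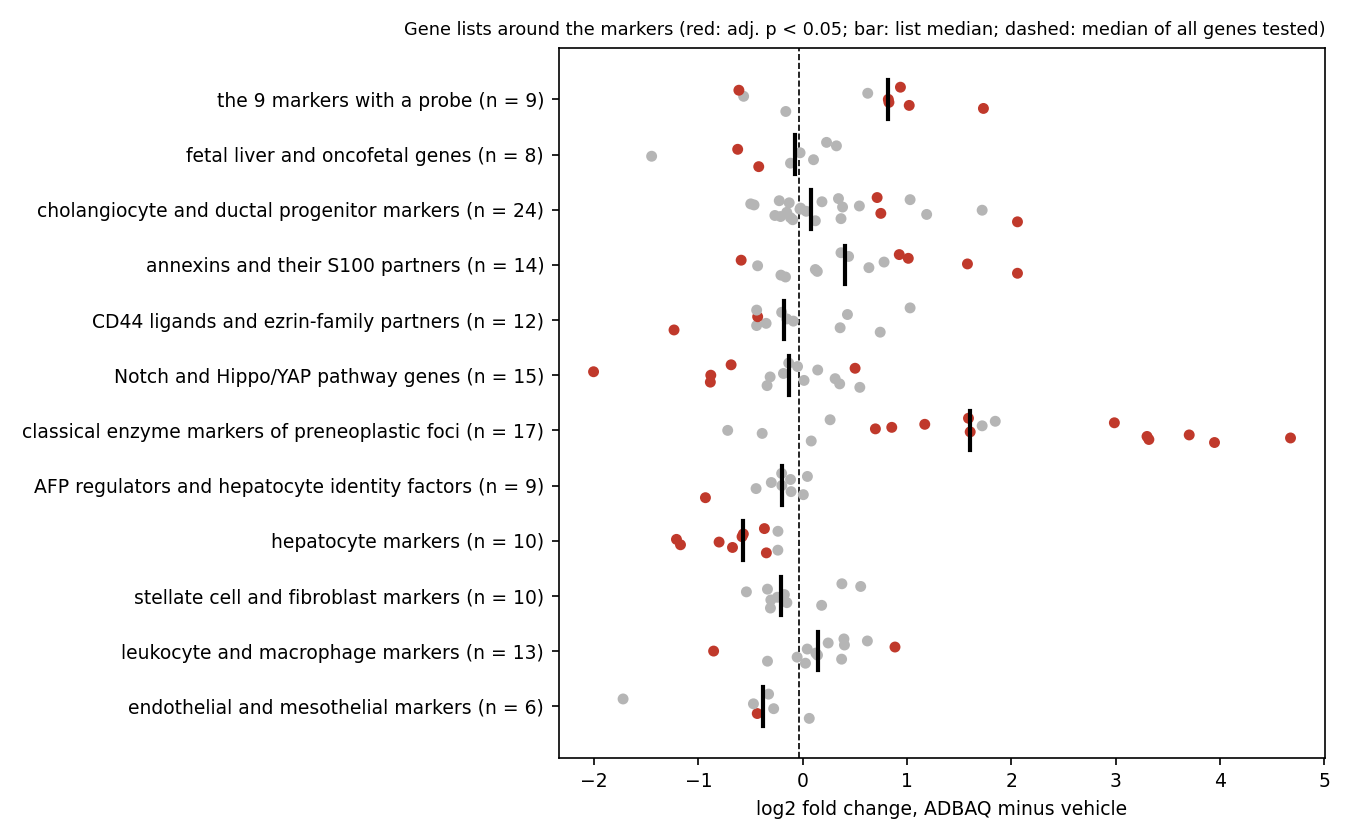
Log2 fold change of ADBAQ minus vehicle (horizontal axis) of each tested gene, 1 point per gene, in the 9 members with a probe and in 11 other lists (vertical axis), in red where the adjusted p is under 0.05, with the median of each list as a black bar and that of all genes tested, -0.04, as a dashed line. Akr1b10 is drawn at its measured value, which rests on dim vehicle signals; the foci enzymes reach furthest right, the hepatocyte markers all lie left of 0, and the duct markers spread around it.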

How the data were processed

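Liver RNA of 6 rats, 3 given ADBAQ and 3 given vehicle, was measured on 1-colour Agilent arrays, with Agilent Feature Extraction 10.7.1.1 per the file headers and 10.7 per the submitters' processing notes. The deposited scanner files hold intensity on a linear scale, the processed signal with background already removed, and columns of the kind other, which are flags per the file headers. The authors' deposited series table holds a ratio, the processed signal over the array's 75th percentile, as found by setting it against the scanner files. The medians of its columns were 0.0929, 0.0971 and 0.0952 for ADBAQ and 0.0967, 0.097 and 0.0982 for vehicle, and it is no independent check.

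Outlier spots, at most 2 on an array and none on a member probe, were dropped. Values were log2 of the processed signal relative to the 75th percentile. A probe was kept if all 3 arrays of either group had it well above background (38695 probes, 11344 named genes). ADBAQ was set against vehicle in limma 3.58.1 (lmFit and eBayes; R 4.3.3), with Benjamini-Hochberg adjustment over all probes kept and a threshold of 0.05. The procedure was also run on simulated data with independent noise for each probe and a small set of changed probes. That simulation held no slide or scan effect, so it cannot show how the test behaves with one. A gene was read at its brightest probe, and probe levels were not compared between genes. SE of fold changes is that of eBayes; for within-array differences it is the spread of rats alone. Probes were named through RefSeq accessions, and whether probes share targets was not examined. Replicate numbers did not pair the rats: the correlations of deviations from the group means were -0.0292, -0.02 and -0.00456 for equal numbers. That the rats were separate animals is taken from the treatment protocol.

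Members and lists were chosen with earlier results of these data known. From each list up to 4 called genes with the largest changes and no overlap between groups are named; other named list genes were chosen after their values were seen, as were the within-array differences and the sum of duct markers without Krt18. The number of arrays limits the precision. Alternatives were normexp background correction (offset 50) on the median spot signal, quantile normalization, median centring, spike-in scaling (8 spike-in probes), other filters on dim probes, the series table, other variance models, averaging the probes of a gene, the replicate number as a block, and omitting each array in turn.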

Additional observations from a re-analysis of the deposited data

How the results depend on the processing

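Anxa2 and Cd44 kept their direction and their call under all 17 alternatives, with log2 fold changes of 1.44 to 2.49 and 0.56 to 1.78. Prom1 lost its call under 5 alternatives, Epcam under 8, Cftr under 5 and Krt7 under 4, among them scaling to the spike-in controls, which turned Krt7 to 0.14. That scaling also turned Afp to 0.59 and Gpc3 to 0.19, and leaving out ADBAQ replicate 3 turned Afp to 0.10 (the 6 values with 1 array left out ran from -0.29 to 0.10); the cause was not tested. Of the 9 genes tested, between 2 and 4 were called with 1 array left out, against 6 with all arrays; 2 were called without ADBAQ replicate 1 and 3 without ADBAQ replicate 2 or 3. Of the tested probes of these genes 4 to 7 were called, against 9. Over the whole array 7119 probes and 2308 genes were called, and 2770 to 4714 probes and 902 to 1547 genes with 1 array left out. The counts were 13677 probes and 4041 genes with normexp background correction (1394 genes higher, 2647 lower), 30789 and 9130 with scaling to the spike-in controls, and 14591 and 3533 with no filter on dim probes. Of the genes in all lists, the 9 included, 45 were called, 114 with scaling to the spike-in controls and 25 to 33 with 1 array left out. With the replicate number as a block, which does not pair these rats, 2953 probes, 982 genes and 27 list genes were called, and 4 of the 9 genes; Epcam (adjusted p = 0.0723) and Cftr (0.0531) were lost. Slide as a block could not be run, since each slide held 1 group. Signal over background limits Cftr, Krt7, Gpc3 and the uncalled Cd44 probe.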
